A study of Mus musculus with 4 samples.

Results

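The transcripts of the mouse immunoglobulin constant genes and of the joining chain were followed in lung RNA. The genes were chosen by symbol: the 8 heavy chain constant genes Ighm, Ighd, Ighg3, Ighg1, Ighg2b, Ighg2c, Ighe and Igha, the kappa light chain constant gene Igkc, and Jchain. All 10 are among the 41079 genes of the deposited table. Lung RNA was sequenced as 4 libraries, with 1 library per condition. The normal WT and normal Rab44-KO mice are labelled as untreated, although the protocol attached to them also names a PBS challenge. The OVA-induced mice, WT and Rab44-KO alike, received 100 μg ovalbumin (OVA, a chicken egg protein used as the allergen) with alum intraperitoneally on days 0, 7 and 14. They were then challenged intranasally on 4 days, from day 17 to day 20, with 100 μg OVA in 50 μL, and lungs were taken on day 21. WT and Rab44-KO mice were female littermates aged 8 to 14 weeks, and the knockout was made by CRISPR/Cas9 editing on a C57BL/6 background. The number of mice behind each library, and whether lungs were pooled, is not given in the sources used here. With 1 library per condition no difference below has a replicate check, no test of a condition was made, and every comparison is between libraries.

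An antibody consists of paired heavy and light chains, and the heavy chain constant region sets its class. A naive B cell expresses IgM and IgD from Ighm and Ighd by alternative splicing of the same transcript. Class switch recombination later deletes the DNA in between and places Ighg3, Ighg1, Ighg2b, Ighg2c, Ighe or Igha behind the variable region, while plasma cells, the antibody-secreting descendants of B cells, carry very large amounts of immunoglobulin mRNA. In mice, IgG1 and IgE are the classes typical of responses to alum-adsorbed proteins, IgG2c and IgG3 those of interferon-rich responses, and IgA is the class of mucosal surfaces. The joining chain encoded by Jchain links IgM and IgA subunits into polymers that the epithelial receptor encoded by Pigr carries onto mucosal surfaces.

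The heavy chain genes lie in a row on the minus strand of chromosome 12 (GRCm38, GENCODE M21). In the order of transcription they are Ighm (113418558 to 113422730), Ighd (113406604 to 113416324), Ighg3 (113356224 to 113361232), Ighg1 (113325240 to 113330523), Ighg2b (113302965 to 113307933), Ighg2c (113285325 to 113288932), Ighe (113269260 to 113273248) and Igha (113254830 to 113260236). Igkc is on the plus strand of chromosome 6 (70726435 to 70726966) and Jchain on the minus strand of chromosome 5 (88519809 to 88527891). The ends of the secreted heavy chains are printed because they set apart the classes that polymerize with the joining chain, whose levels are compared below. Each line holds the last 48 coding bases before the stop codon, read 5′ to 3′ along the transcript from the GRCm38 genome, with the codons of a cysteine and a tyrosine at the end in capitals.
Ighm, chr12:113420870-113420917, minus strand: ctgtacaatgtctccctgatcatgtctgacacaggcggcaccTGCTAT
Igha, chr12:113258771-113258818, minus strand: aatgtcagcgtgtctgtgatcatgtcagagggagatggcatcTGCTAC
Ighg1, chr12:113328979-113329026, minus strand: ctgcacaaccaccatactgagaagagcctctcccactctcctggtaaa
Ighg2b, chr12:113306392-113306439, minus strand: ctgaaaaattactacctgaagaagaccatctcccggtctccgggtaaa
Ighg2c, chr12:113287392-113287439, minus strand: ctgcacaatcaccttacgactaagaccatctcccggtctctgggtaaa
Ighe, chr12:113271276-113271323, minus strand: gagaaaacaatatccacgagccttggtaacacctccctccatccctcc
Of the 8 heavy chain genes, 2 (Ighm and Igha) end in these codons and the other 6 do not. The cysteine of this tailpiece is the residue through which IgM and IgA bind the joining chain. No 150-base window of the transcripts of the 10 genes occurs in a transcript of another gene. Shorter or mismatched stretches were not compared, and how multiply matching reads were counted is not given in the sources used here, so the split of reads among the IgG genes, whose sequences are alike, is uncertain.

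The libraries held between 18112901 and 19910236 counts, with 24316 to 25003 genes detected by 1 count or more. Rab44, the targeted gene, had 251 and 810 counts in the normal and OVA-induced WT libraries and 1 and 0 counts in the corresponding Rab44-KO libraries, so all 4 libraries matched their genotype labels. All 8 lung markers examined, among them Sftpc of alveolar type II cells and Scgb1a1 of club cells, were present in every library. Of these 8, Sftpc was over 2-fold lower in Rab44-KO than WT after OVA (9290 and 18690 CPM, -1.01), with a list median of -0.15, and of 5 blood genes Hba-a2 was (41.3 and 87.3 CPM, -1.08), with a median of -0.26, beside 7.34% of all genes. With TPM neither passed 2-fold (-0.68 and -0.75). The part of these markers in the results was not tested. Levels are given as CPM (counts divided by the library size, which was adjusted by edgeR's TMM method) when a gene is compared between libraries, and as the deposited TPM (transcript abundance corrected for gene length) when genes are compared with each other. The log2 ratio is that of CPM with a small prior count added, and a gene is called over 2-fold when its absolute log2 ratio is above 1 and the higher of both libraries has 10 counts or more. Ranges in parentheses are exact 95% intervals, which cover counting error only. In bulk RNA, fewer cells of a type and less RNA per cell cannot be told apart. A gene's count also pools its secreted, membrane and unrearranged (germline) transcripts.

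**Figure D1:**
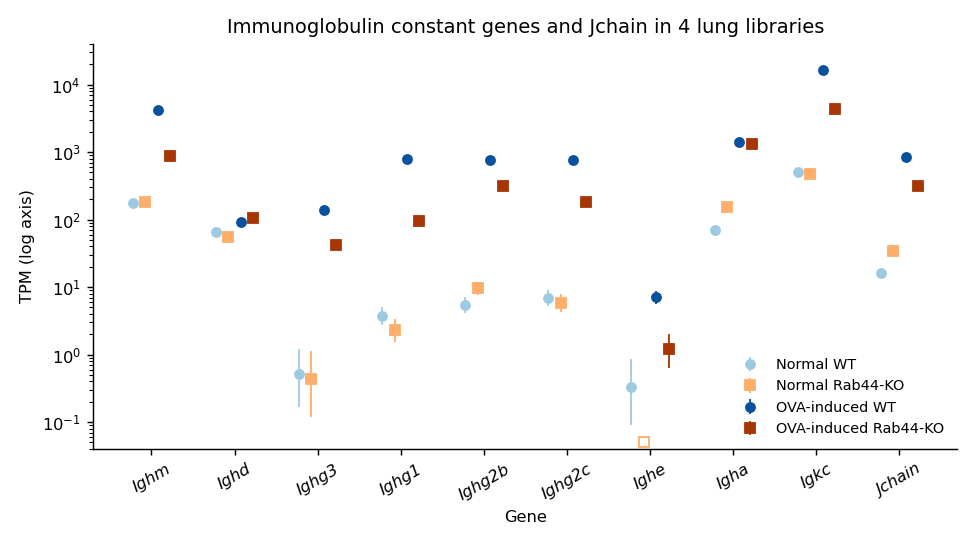
TPM on a log axis for the 10 genes in the 4 libraries. Each marker is 1 library, bars are exact 95% Poisson intervals for counting error (many are smaller than the marker), and the open square on the axis is Ighe at 0 counts in normal Rab44-KO. Every gene other than Ighe lay above 41 TPM in both OVA-induced libraries, and the OVA-induced WT marker was the highest of the 4 for every gene other than Ighd.

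In the normal lungs, the heavy chain transcripts were mainly of the unswitched classes. The 10 genes together held 0.0264% of the counts in WT and 0.0316% in Rab44-KO. Igkc, which encodes the constant region of most mouse light chains, was the most abundant by TPM, at 506 in WT and 481 in Rab44-KO. Ighm, the IgM heavy chain, followed with 175 and 184 TPM, then Igha, the IgA heavy chain, with 69.6 and 151 TPM, and Ighd, the IgD heavy chain, with 64.5 and 54.8 TPM. The intervals of Igha and Ighd overlapped in normal WT and were apart in normal Rab44-KO.

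Jchain stood at 16.3 TPM in normal WT and 34.3 TPM in normal Rab44-KO. The 4 IgG genes were all below 10 TPM in both normal libraries, and the intervals of Ighg2c, Ighg2b and Ighg1 overlapped from neighbour to neighbour in normal WT. Ighg3 had 5 counts in normal WT and 4 in normal Rab44-KO, and Ighe, the IgE heavy chain, had 4 and 0 counts. A count of 0 allows a level of up to 0.164 CPM at a floor of 3 counts in that library.

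OVA induction in WT mice went with a large excess of nearly every class. The 10 genes together had 5056 counts in normal WT and 165135 in OVA-induced WT, or 0.0264% and 0.829% of the library, a log2 ratio of 5.02 (4.98 to 5.06). Of the 10 genes, 9 were over 2-fold higher and none lower. Of the 19023 genes compared, 8.99% were over 2-fold higher and 5.2% lower. Their median log2 ratio was 5.53, beside 0.00 over all genes.

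The IgG genes had the largest ratios. Ighg1 went from 2.34 CPM in normal WT to 556 CPM in OVA-induced WT, a log2 ratio of 7.89 (7.47 to 8.35). Ighg3 went from 0.260 to 79.7 CPM, with the wide interval of 5 counts (8.22, 7.03 to 9.88). Ighg2b and Ighg2c, with log2 ratios of 7.29 (6.91 to 7.71) and 6.95 (6.57 to 7.36), reached 8550 and 6981 counts after induction. The intervals of neighbouring ratios among these 4 genes overlapped, so their order is not resolved at this depth beyond Ighg1 standing above Ighg2c.

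The chains that form polymers were also far higher. Ighm went from 110 to 2942 CPM (log2 ratio 4.75, 4.68 to 4.81), and Igha from 35.9 to 816 CPM (4.51, 4.40 to 4.62). Jchain, which joins them, went from 13.9 to 816 CPM, and its log2 ratio of 5.88 (5.70 to 6.06) exceeded both. Igkc had a log2 ratio of 5.18 (5.10 to 5.26).

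Ighe and Ighd were the rarest classes by TPM in the OVA-induced WT library. Ighe had 96 counts, or 4.96 CPM, against 4 counts in normal WT, a log2 ratio of 4.53 (3.17 to 6.48). Ighd, the marker of unswitched naive B cells, went only from 27.3 to 44.0 CPM (0.69, 0.53 to 0.85) and was the single gene of the 10 that stayed within 2-fold. By TPM the OVA-induced WT order was Igkc (16226), Ighm (4156), Igha (1403), Jchain (851), then Ighg1 (790), Ighg2b (761) and Ighg2c (754), with intervals that overlapped between neighbours only, then Ighg3 (140), Ighd (92.0) and Ighe (7.05).

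In Rab44-KO mice the same comparison gave the same directions, with smaller ratios for 8 of the 10 genes, the others being Ighd (0.83 beside 0.69 in WT) and Ighe, which has only a lower bound. The summed counts were 5724 in normal Rab44-KO and 42995 in OVA-induced Rab44-KO, a log2 ratio of 2.81 (2.77 to 2.85). Again 9 of the 10 genes were over 2-fold higher and none lower, where 6.44% of the 19073 genes compared lay above 2-fold and 3.85% below. The median was 3.98, or 3.07 with Ighe set to its bound, beside -0.01 over all genes.

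Ighg1 went from 1.42 to 53.5 CPM, a log2 ratio of 5.22 (4.67 to 5.85), Ighg2b from 4.82 to 144 CPM (4.90, 4.59 to 5.22) and Ighg2c from 2.41 to 70.0 CPM (4.86, 4.43 to 5.33). Ighg3 had 4 counts before and 368 after (6.39, 5.06 to 8.31). Igha, Igkc and Jchain had log2 ratios of 3.02, 3.04 and 3.10, with overlapping intervals, and Ighm had 2.11 (2.04 to 2.18), below each of these. Ighe went from 0 to 13 counts, 4.06-fold higher at the floor of 3 counts, with an exact lower limit of 2.85-fold. Ighd again stayed within 2-fold (0.83), although removal of the trend with gene length brought it to 1.04 and the count of genes over 2-fold to 10.

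**Figure D2:**
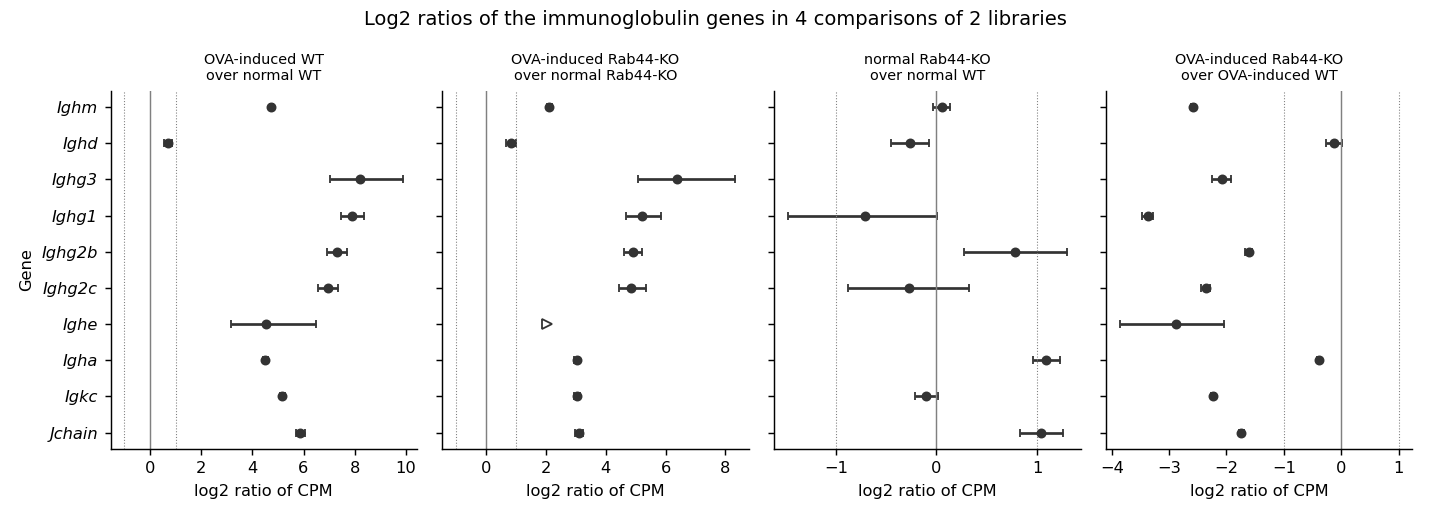
Log2 ratios of CPM for the 10 genes in 4 comparisons of libraries, with exact 95% intervals for counting error, a solid line at no difference and dotted lines at 2-fold (the panels have different axes). The open triangle is the lower bound of Ighe against 0 counts, and Ighg3 and Ighe are missing in the normal comparison because neither reached 10 counts. In the OVA-induced libraries 8 genes lay beyond 2-fold below WT, and Ighd and Igha lay within 2-fold.

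The normal libraries of the 2 genotypes held similar totals, with a log2 ratio of 0.25 (0.20 to 0.31) of Rab44-KO over WT. Igha and Jchain were each about 2-fold higher in normal Rab44-KO, and no other gene of the 8 with enough counts passed 2-fold. Igha had 689 counts in WT and 1396 in Rab44-KO, a log2 ratio of 1.09 (0.96 to 1.23), and Jchain had 266 and 521 counts (1.04, 0.83 to 1.26). Both intervals include 2-fold. These 2 of 8 stand beside 2.77% of 18718 genes over 2-fold higher, and 0 of 8 beside 2% over 2-fold lower.

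The remaining genes differed less. Ighg2b stood at 54 and 88 counts (0.78, 0.27 to 1.29). Ighd was slightly lower in normal Rab44-KO (-0.26, -0.45 to -0.07), while the intervals of Ighm (0.05), Igkc (-0.10), Ighg1 (-0.72) and Ighg2c (-0.27) all included 0. Without Igha and Jchain, the summed log2 ratio was -0.03 (-0.10 to 0.03).

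In the OVA-induced lungs most immunoglobulin transcripts were lower in Rab44-KO than in WT. The 10 genes together were 3.87-fold lower (3.83 to 3.91), a log2 ratio of -1.95. Of the 10, 8 were over 2-fold lower and none higher, where the share of all 19259 genes compared was 7.34% for the lower and 8.4% for the higher direction. The median was -2.16, beside -0.02 over all genes. Scaling by TPM moved the median of all genes in this comparison by 0.33 on the log2 scale, and the summed log2 ratio was then -1.73, with the same 8 genes over 2-fold lower. Of all genes, 4.03% were then over 2-fold lower and 13.5% higher.

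Ighg1 had the largest difference. Its counts were 10764 (556 CPM) for WT and 1043 (53.5 CPM) for Rab44-KO, a log2 ratio of -3.38 (-3.47 to -3.29). Ighe had 96 and 13 counts, with a ratio of -2.88 whose interval (-3.85 to -2.05) covers the ratios of Ighg1, Ighm, Ighg2c, Igkc and Ighg3. Ighg2c (-2.36, -2.45 to -2.28) and Ighg3 (-2.08, -2.25 to -1.91) were less reduced than Ighg1, and Ighg2b least of the IgG genes, from 8550 to 2808 counts (-1.62, -1.68 to -1.55).

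After OVA, Ighm stood at 56984 counts in WT and 9570 in Rab44-KO, or 2942 and 491 CPM, a log2 ratio of -2.58 (-2.61 to -2.55). Igkc went with it, from 2466 to 522 CPM (-2.24, -2.27 to -2.21), and Jchain was lower by less, from 816 to 244 CPM (-1.74, -1.79 to -1.69). In CPM, Ighm and Igkc made up 38.8% and 30.7% of the summed difference between these libraries. Jchain contributed 9.04%, Ighg1 7.95%, Ighg2b 4.71% and Ighg2c 4.59%.

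Igha and Ighd stood apart from the other 8 genes. The OVA-induced counts of Igha were 15811 for WT and 12100 for Rab44-KO, or 816 and 621 CPM. Its log2 ratio of -0.40 (-0.43 to -0.36) became -0.07 with TPM and 0.05 once the trend of log2 ratios with gene length was removed, so its direction depends on the scaling. Ighd had 853 and 789 counts (-0.12, -0.26 to 0.02), and its ratio became 0.20 with TPM and 0.35 with the length trend removed. The TPM order in OVA-induced Rab44-KO was accordingly different from that in WT, with Igha (1338) above Ighm (870), and Ighd (106) beside Ighg1 (95.4) with overlapping intervals.

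The responses of the 2 genotypes were set against each other as the log2 of the ratio of their OVA to normal ratios. It was lowest for Jchain, at -2.78 (-3.01 to -2.56), followed by Ighg1 (-2.66, -3.39 to -1.90), Ighm (-2.63, -2.73 to -2.54), Ighg2b (-2.39, -2.91 to -1.88), Igkc (-2.14, -2.26 to -2.02) and Ighg2c (-2.09, -2.69 to -1.48). The intervals of Jchain, Ighg1, Ighm and Ighg2b overlapped, so the order of these genes is not resolved at this depth. Igha had -1.49 (-1.63 to -1.35). The interval of Ighg3 (-1.83, -4.05 to 0.51) and that of Ighd (0.14, -0.10 to 0.38) included 0.

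**Figure D3:**
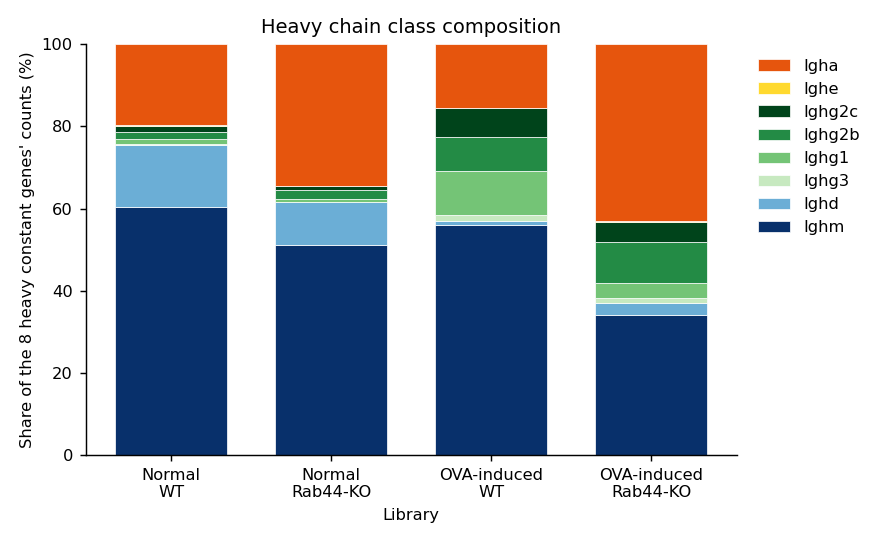
Share of each heavy chain constant gene in the summed counts of the 8 heavy chain genes, 1 stacked bar per library, adding up to 100%. The Igha segment is 19.8%, 34.5%, 15.6% and 43.1% from left to right, and the green IgG segments are taller in the OVA-induced than in the normal libraries.

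The class composition was read as the share of each gene in the summed heavy chain counts of its own library, which does not depend on the scaling between libraries. IgG transcripts made up 4.60% (3.92 to 5.35) of the heavy chain counts in normal WT and 4.01% (3.42 to 4.66) in normal Rab44-KO. After OVA they made up 27.4% (27.1 to 27.7) in WT and 19.9% (19.4 to 20.4) in Rab44-KO. In both genotypes the IgG share was thus several times higher in the OVA-induced library, and of the OVA-induced libraries it was lower in Rab44-KO.

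The order of the OVA-induced libraries turned when Igha was left out of the total, a choice made after seeing the data. The IgG share was then 32.5% (32.1 to 32.8) in WT and 35.0% (34.3 to 35.7) in Rab44-KO. Igha itself held 15.6% (15.3 to 15.8) of the heavy chain counts of the OVA-induced WT library and 43.1% (42.5 to 43.7) of those of Rab44-KO. In the normal libraries it held 19.8% and 34.5%, so the Igha share was higher in Rab44-KO in both conditions.

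The Ighm share was 60.4% and 51.2% in the normal WT and Rab44-KO libraries, and 56.1% and 34.1% in the OVA-induced ones. After OVA, Igha took 21.7% of the sum of Ighm and Igha in WT and 55.8% in Rab44-KO. All switched classes together held 24.5% and 38.5% in normal WT and Rab44-KO lungs, and 43.1% and 63.1% after OVA. With TPM in place of counts, the Igha share of the heavy chains after OVA was 17.3% in WT and 45.4% in Rab44-KO.

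Ighd was a smaller part of the unswitched transcripts in the OVA-induced libraries. Its share of the sum of Ighm and Ighd was 19.98% and 16.7% in the normal WT and Rab44-KO libraries, against 1.47% (1.38 to 1.58) and 7.62% (7.11 to 8.14) after OVA. Relative to the 12 B cell identity genes, Ighd varied over a narrower range, at 9.06 and 9.48 counts per 100 counts of that list in normal WT and Rab44-KO lungs, and 7.14 and 10.7 after OVA. On the same scale Ighm went from 36.3 to 477 in WT and from 47.2 to 130 in Rab44-KO.

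Within IgG the subclass shares differed between the OVA-induced libraries. Ighg1, the subclass favoured by interleukin-4, held 38.7% (38.1 to 39.2) of the IgG counts of the OVA-induced WT library and 18.7% (17.7 to 19.7) of those of Rab44-KO. Ighg2b, a subclass linked to transforming growth factor beta, held 30.7% (30.2 to 31.3) and 50.3% (49.0 to 51.6). The shares of Ighg2c, 25.1% and 24.4%, had overlapping intervals.

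Ighg3 held 5.55% and 6.59% in the same libraries. The normal libraries, with only 160 and 162 IgG counts, had an Ighg1 share of 28.1% (21.3 to 35.8) in WT and 16.0% (10.8 to 22.6) in Rab44-KO, and an Ighg2b share of 33.8% (26.5 to 41.6) and 54.3% (46.3 to 62.2). The Ighg2b share was therefore higher in Rab44-KO in both conditions, beyond counting error. Per 100 Ighg1 counts there were 64.9 Ighg2c counts in WT and 131 in Rab44-KO after OVA. Among the counts of Ighg1 and Ighe, genes that share a dependence on interleukin-4, Ighe took 0.884% (0.717 to 1.08) in WT and 1.23% (0.657 to 2.10) in Rab44-KO after OVA, and these intervals overlap.

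Jchain was measured against the chains it joins. Per 100 counts of Ighm and Igha there were 9.53 (8.37 to 10.8) Jchain counts in normal WT and 15.03 (13.7 to 16.5) in normal Rab44-KO. The OVA-induced WT and Rab44-KO libraries had 21.7 (21.3 to 22.1) and 22.0 (21.3 to 22.7), a difference in counts within counting error. By TPM, which corrects for gene length, these libraries had 15.3 and 14.5 per 100, in the reverse order. The order of the OVA-induced libraries therefore depends on the measure. Ighm and Igha, the 2 genes whose secreted ends carry the cysteine and tyrosine codons shown above, were summed after OVA. In CPM their sum was 3.38-fold (3.33 to 3.43) lower in Rab44-KO than WT, beside 3.34-fold (3.23 to 3.45) for Jchain. In TPM their sum was 5559 in WT and 2208 in Rab44-KO, beside 851 and 320 for Jchain.

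The kappa and lambda light chains differed in how they compared with the heavy chains. Igkc stood at 37.6 counts per 100 heavy chain counts in WT and 28.7 in Rab44-KO in the normal condition, and at 47.0 and 36.3 after OVA. Corrected for gene length as TPM, it stood above the heavy chains. It had 155 and 118 per 100 in the normal WT and Rab44-KO libraries, and 200 and 146 after OVA. The lambda constant genes Iglc1, Iglc2, Iglc3 and Iglc4 took 24.2% and 20.8% of the light chain constant counts in the normal WT and Rab44-KO libraries, and 4.35% and 10.8% after OVA. In sum, OVA-induced over normal WT, the lambda genes were 5.17-fold higher, beside 28.9-fold for the heavy chain genes, and 1.77-fold lower in OVA-induced Rab44-KO than WT, beside 3.64-fold. Of the 3 lambda genes with enough counts, Iglc2 and Iglc3 were over 2-fold lower in OVA-induced Rab44-KO than WT (-1.66 and -1.16, beside 7.34% of all genes), and Iglc1 was not (911 and 773 counts, -0.25). With TPM Iglc3 no longer passed (-0.84). The summed heavy chain variable genes stood at 15.2 counts per 100 heavy chain constant counts in WT and 19.8 in Rab44-KO after OVA.

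**Figure D4:**
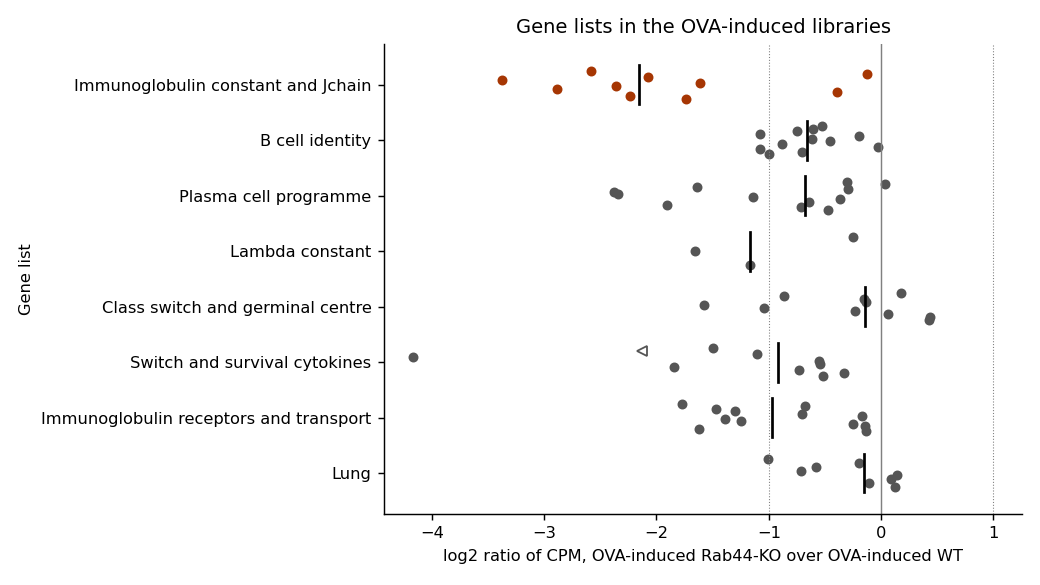
Log2 ratio of OVA-induced Rab44-KO over OVA-induced WT for the 10 immunoglobulin genes (red) and for the genes of 7 related lists that had enough counts (grey). Each point is 1 gene, the black bar is the median of its list, the open triangle is the bound of Il13 at 0 counts, and dotted lines mark 2-fold. The immunoglobulin median is -2.16, and the medians of the B cell and plasma cell lists are -0.66 and -0.67.

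Genes of the cells that make immunoglobulin were compared between the same libraries. The 12 B cell identity genes summed to 302 CPM in WT and 241 in Rab44-KO in the normal condition, and to 617 and 377 CPM after OVA. In OVA-induced Rab44-KO over WT, 3 of the 12 were over 2-fold lower, none higher and 9 within 2-fold, with a median of -0.66 (7.34% of all genes were over 2-fold lower). With TPM, an alternative for the lists added after seeing the data, none of the 12 passed 2-fold (Cd79b -0.75) and the median was -0.33, beside 4.03% of all genes. Cd79b (1458 and 695 counts, -1.08), part of the B cell receptor, was among the 3, while Pax5, the transcription factor that maintains B cell identity, had -0.19 and Cr2, the complement receptor of follicular B cells, -0.03. None of the 12 was at 0 in any library.

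The 12 plasma cell genes summed to 798 and 783 CPM in the normal and 1202 and 847 CPM in the OVA-induced WT and Rab44-KO libraries, and 5 of them were over 2-fold lower in OVA-induced Rab44-KO than WT (7.34% of all genes). These were Mzb1, a chaperone for IgM assembly (956 and 185 counts, -2.38), Tnfrsf17, the plasma cell survival receptor BCMA (-2.35), Fkbp11 (-1.91), Irf4 (-1.64) and Derl3 (-1.14), of which Derl3 did not pass with TPM (-0.81). Sdc1, Xbp1 and Prdm1, which cells other than plasma cells also express, had -0.30, -0.30 and 0.04. Per 100 counts of the B cell list there were 850 heavy chain counts in WT and 381 in Rab44-KO after OVA, and per 100 counts of the plasma cell list 436 and 170. Of the 23276 plasma cell list counts in OVA-induced WT, Sdc1 had 5533, Txndc5 4845, Xbp1 4784 and Edem1 3017. Mzb1 was lower by more (-2.38, -2.61 to -2.15) than the summed heavy chains (-1.87, -1.88 to -1.85), while the intervals of Tnfrsf17 (-3.58 to -1.32) and Fkbp11 included that value, and without Igha the heavy chains had -2.44 (-2.46 to -2.41), within the interval of Mzb1. The direction of the heavy chain level against plasma cell genes therefore depends on the gene and on Igha. The part of cell number in the immunoglobulin differences was not tested.

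Markers of lymphoid tissue moved the same way at a smaller scale. The list of 8 summed to 120 and 118 CPM in the normal libraries, and to 211 and 141 CPM in OVA-induced WT and Rab44-KO. Of the 6 with enough counts, Ltb and Ccl19 were over 2-fold lower in OVA-induced Rab44-KO than WT (7.34% of all genes), and the median was -0.84. With TPM Ccl19 no longer passed (-0.77). Glycam1, a product of lymph node venules, was at 0 in all 4 libraries, and Madcam1 had at most 2 counts. Of the 6 thymus markers, Rag1, Rag2 and Ptcra had at most 2 counts. Dntt had 0 and 7 counts in the normal WT and Rab44-KO libraries and 8 and 12 after OVA, and Cd4 and Cd8b1, which mature T cells also express, were lower in OVA-induced Rab44-KO than WT within 2-fold (-0.84 and -0.83). The part of lymphoid tissue in the libraries was not tested further.

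Genes of class switching and of the germinal centre were also compared. Of the 10 switch and germinal centre genes with enough counts, 2 were over 2-fold lower in OVA-induced Rab44-KO than WT (7.34% of all genes), and the median was -0.14. These were Exo1, with 24 counts in WT and 8 in Rab44-KO, and Apex1, with 613 and 299, and neither passed with TPM (-0.94 and -0.72). Among the switch and survival cytokines, Il4, the switch factor for IgG1 and IgE, had 6 and 7 counts in normal WT and Rab44-KO lungs, and 17 and 6 after OVA. Il13 had 1 and 0 counts before OVA, and 13 and 0 after. Ifng, the switch factor for IgG2c, had 5 and 3 counts before and 20 and 1 after.

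Tgfb1, the switch factor for IgA and IgG2b, was better covered, with 1449 and 1276 counts in normal WT and Rab44-KO lungs and 2024 and 1393 after OVA, and had a log2 ratio of -0.55 in OVA-induced Rab44-KO over WT. Of the 10 cytokine genes compared, 5 were over 2-fold lower (7.34% of all genes) and none higher (8.4%), with a median of -0.92. Of these 5, Il4, Il13 and Il6 had fewer than 20 counts in WT, Ifng had 20 and Cd40lg had 36. With TPM Il6 no longer passed (-0.72), which left 4.

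The receptors that bind or carry antibody were also compared. Pigr, the carrier of polymeric IgA and IgM, had 845 and 869 counts in the normal WT and Rab44-KO libraries and 5270 and 1549 in the OVA-induced ones. Its log2 ratio of OVA-induced Rab44-KO over WT was -1.78, beside -1.74 for Jchain and -0.40 for Igha. Of the 12 receptor and transport genes, 6 were over 2-fold lower (7.34% of all genes) and none higher (8.4%), with a median of -0.98. They included the IgG receptors Fcgr2b (-1.39) and Fcgr3 (-1.24) and the shared signalling chain Fcer1g (-1.30), while the IgG receptors Fcgr1 (192 and 172 counts, -0.17) and Fcgr4 (363 and 308 counts, -0.25) and Fcgrt, the neonatal receptor that protects IgG (-0.68), stayed within 2-fold. With TPM, Fcgr3 (-0.91) and Fcer1g (-0.97) no longer passed, which left 4 of 12.

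The 10 genes did not share 1 pattern over the 4 libraries. Distance between patterns was measured as the root mean square difference of log2 CPM after centring each gene over its 4 libraries. Ighm and Igkc were closest (0.36), followed by Ighg2b and Ighg2c (0.47). Ighe and Ighd lay farthest from the others, the nearest being Ighg1 for Ighe (1.61, resting on few counts) and Igha for Ighd (1.58).

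Among 13793 genes outside the immunoglobulin loci, the closest to the summed pattern were AA467197 (0.41), the acute-phase gene Saa3 (0.43), the neutrophil chemokine gene Cxcl5 (0.50), Wfdc17 (0.54) and Chil3 (0.65). For Ighm the closest was Chil3 (0.36), a chitinase-like protein of alternatively activated macrophages. For Igha they were Cxcl5 (0.48), Clec4d (0.50) and AA467197 (0.53), with S100a9, a neutrophil protein, the fifth (0.65). The nearest gene to Ighg1 lay farther away, Slc26a4 (1.22). With 4 libraries these distances describe the values only.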

How the data were processed

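The authors trimmed 150-bp paired-end reads from a directional kit, mapped them with HISAT2 on GRCm38 and obtained gene counts from featureCounts. They deposited raw counts, and the deposited TPM are the same counts scaled by 1 length per gene. Tool versions and the handling of strand and of multiply matching reads are not given in the sources used here. Gene starts in the table equal RefSeq GRCm38 for 0 of the 10 genes, so positions and sequences are from GENCODE M21.

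Counts were scaled by TMM over the 4 libraries (edgeR 4.0.16, R 4.3.3, factors 0.973 to 1.02). Ratios used a prior count of 0.125 and were computed in Python 3.11.15 with scipy 1.17.1. A call needed at least 10 counts in the higher library. Ratios have exact Clopper-Pearson intervals, levels Poisson and shares binomial ones, at 95% and for counting error only. Zero counts were compared at 3 counts per library. No model was fitted over the 4 libraries, so no p-value is given. The log2 ratio and its interval were tested on simulated Poisson counts with known folds, with total counts as library sizes. TMM scaling, the shares and variation between animals were not part of that check.

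The genes and lists were chosen with earlier results of these data known. All 10 genes are named, members of the lists may be named, and the 5 genes nearest in pattern with at least 100 counts in the highest library were listed. Alternatives were DESeq2 1.42.0 size factors, total counts, TMM on the compared pair or without immunoglobulin genes, TPM with a pseudocount of 0.1, removal of a running median along gene length (501 genes), thinned counts, a prior count of 2, count minimums of 1 and 50, a log2 ratio above 2, intervals wholly beyond 2-fold, and other denominators for shares. TPM ratios of the list genes were added after seeing the data.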

Additional observations from a re-analysis of the deposited data

Results flagged for a closer look

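For 3 genes the Rab44-KO library lay above WT in the normal condition and below WT after OVA induction, with counting intervals that left out 0 in both. Ighm had the same signs, but its normal ratio of 0.05 (-0.04 to 0.14) included 0. These opposite directions were not tested, since each condition has 1 library per genotype. The log2 ratio of Rab44-KO over WT, OVA-induced relative to normal, was -2.78 for Jchain, -2.39 for Ighg2b and -1.49 for Igha. The values behind them were 1.04 and -1.74 for Jchain, 0.78 and -1.62 for Ighg2b, and 1.09 and -0.40 for Igha in the normal and OVA-induced libraries. For Igha the OVA-induced ratio was 0.05 once the trend with gene length was removed, so its directions are then the same.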

How the results depend on the processing

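No paired analysis was possible because the labels carry no replicate numbers and each condition has 1 library. Without replicates no library could be left out either. Over 349 alternative values of the 47 single-gene results, 300 stayed within the counting interval, 49 moved beyond it and 3 changed sign. The changes of sign were Ighd in OVA-induced Rab44-KO over WT, to 0.20 with TPM and 0.35 with the length trend removed, and Igha in the same comparison, to 0.05 with the length trend removed. Without that trend Ighd in OVA-induced over normal Rab44-KO passed 2-fold, at 1.04. The summed log2 ratio of OVA-induced over normal WT, 5.02, became 4.97 with total counts, 4.89 with TPM and 4.74 with the length trend removed. That of Rab44-KO, 2.81, became 3.04 with TPM, and that of the normal libraries, 0.25, became 0.12 with TPM. The summed log2 ratio of OVA-induced Rab44-KO over WT, -1.95, became -1.88 with total counts, -1.73 with TPM and -1.58 with the length trend removed. The 2 genes over 2-fold in the normal comparison became 0 with a log2 ratio above 2 and 0 with intervals wholly beyond 2-fold. The IgG share of normal WT, 4.60%, became 5.41% without Ighd and 5.73% without Igha, and that of normal Rab44-KO, 4.01%, became 6.12% without Igha. In OVA-induced WT 27.4% became 30.2% as a share of TPM and 32.5% without Igha, and in OVA-induced Rab44-KO 19.9% became 21.4% as a share of TPM, 20.5% without Ighd and 35.0% without Igha. Leaving out Igha was chosen after seeing the data. TPM moved the median of all genes by -0.17 in WT, 0.12 in Rab44-KO and 0.33 between the OVA-induced libraries. The same scaling, added for the lists after seeing the data, lowered the genes over 2-fold lower between the OVA-induced libraries from 3 to 0 for B cells, 2 to 0 for class switching, 5 to 4 for plasma cells and for cytokines, 6 to 4 for receptors, 2 to 1 for lambda and for lymphoid tissue, and 1 to 0 for lung and for blood. The cause of these moves was not tested. Depth limits Ighg3 and Ighe, which had at most 5 counts in the normal libraries.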
